A study of Mus musculus with 6 samples.

Results

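The genes described here are the mouse genes of DNA replication and of the G1/S transition: the factors that load and fire replication origins, copy the DNA, supply its nucleotides and switch the programme on. They were chosen by symbol from a list of 59 genes, and no measured value of these libraries enters that rule. The list itself was drawn up with earlier results of these data known. The deposited table held 58 of them (E2f2 was not in it) among 11808 genes. Of these, 54 averaged 1 FPKM or more across all 6 libraries and were tested among 10854 genes. Orc1, Cdc6, Cdc7 and E2f7 lay under that level and are given by their values. FPKM scales fragment counts by transcript length and library size, so levels can be set side by side between genes.

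The cells were primary vascular smooth muscle cells, which give arteries their tone, taken with collagenase from 6-week-old male C57BL/6 mice and cultured in growth medium with serum. In the siSirt7 group they were transfected with siRNA against Sirt7, and in the siScrambled group with a scrambled control siRNA, each at 20 nM for 48 h, with 3 libraries a group. All libraries share the strain, the culture and the lipid transfection, and the knockdown is transient and left some Sirt7 RNA. The labels do not tell separate cell isolations from repeats of 1 culture, so p-values measure only the spread among these libraries, part of which may be technical.

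Before a cell divides, the origin recognition complex and its partners load the MCM helicase on DNA in G1, in an inactive form. At the G1/S transition, cyclin E with CDK2 and the DBF4-dependent kinase activate that helicase, and polymerases, the sliding clamp and the nucleotide-making enzymes then copy the genome. Many of these genes are switched on by E2F transcription factors, so their RNA is high in late G1 and S phase and low in resting cells. Smooth muscle cells are mostly quiescent in the artery and re-enter the cycle in culture with serum.

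Sirt7, a NAD-dependent deacylase gene, had 0.959, 1.25 and 0.360 FPKM in the siSirt7 libraries, against 4.35, 3.55 and 4.48 FPKM in the siScrambled libraries. Its log2 fold change was -1.49 (SE 0.20, limma adjusted p = 0.00388). Each log2 fold change is the siSirt7 mean minus the siScrambled mean of log2(FPKM + 1), so changes of low genes are understated, and a gene is called lower or higher at an adjusted p under 0.05. Library sums were 321944 to 333683 FPKM, and no whole-read steps were found in the values, so sequencing depth is unknown. All 7 smooth muscle markers were in the table and their summed level was 2438 to 2645 FPKM with siSirt7 and 2777 to 2816 FPKM with siScrambled. Of these markers, 3 were lower (Tagln, Cnn1 and Smtn), while Acta2 averaged 1333 FPKM with siSirt7 and 1363 FPKM with siScrambled. Of 6 endothelial markers 1 was in the table (Erg), and of 6 leukocyte markers 4 were in it, without Ptprc and Adgre1. The summed level of these 4 was 20.7 to 23.6 FPKM with siSirt7 and 18.8 to 21.8 FPKM with siScrambled. Most of it was Lyz2, at means of 18.7 FPKM with siSirt7 and 18.0 FPKM with siScrambled. Summed levels of 6 adventitial fibroblast markers were 475.2 to 507.5 FPKM with siSirt7 and 446.5 to 462.1 FPKM with siScrambled. Of these markers, Pdgfra and Dpt were called lower and Lum higher. Summed levels of 5 mesothelial markers were 85.3 to 93.4 FPKM with siSirt7 and 95.9 to 104.5 FPKM with siScrambled. Among these 5, only Upk3b was called, lower (log2 fold change -0.20, limma adjusted p = 0.0147). The part of these other cells in the results was not tested.

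E2F factors and the CCAAT-binding factor NF-Y are well known regulators of these promoters. Sequences from 250 bases before to 50 bases after the RefSeq start (GRCm38.p6) are shown for 5 genes. They were chosen with the response described below known, and Dbf4, the gene called higher, is not among them. Tk1, Ccne1 and E2f1, called lower with no CCAAT box, are not shown either, nor are uncalled genes that held one. Mcm5, Uhrf1, Mcm6 and Rrm2 were called lower, and Orc3 was not called and had the highest log2 fold change of the origin recognition genes on the log2(FPKM + 1) scale. Capitals mark E2F words and CCAAT boxes on either strand, each sequence reads 5′ to 3′ on the gene's own strand, and the regions are Mcm5 at chr8:75109259-75109558 (plus strand), Uhrf1 at chr17:56304063-56304362 (plus), Mcm6 at chr1:128359656-128359955 (minus), Rrm2 at chr12:24708004-24708303 (plus) and Orc3 at chr4:34614893-34615192 (minus).
Mcm5: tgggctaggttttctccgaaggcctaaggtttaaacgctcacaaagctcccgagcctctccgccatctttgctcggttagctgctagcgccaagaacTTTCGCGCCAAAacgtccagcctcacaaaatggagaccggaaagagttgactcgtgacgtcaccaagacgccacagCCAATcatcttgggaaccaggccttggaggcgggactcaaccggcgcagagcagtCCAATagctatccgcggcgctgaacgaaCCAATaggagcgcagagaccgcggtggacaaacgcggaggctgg
Uhrf1: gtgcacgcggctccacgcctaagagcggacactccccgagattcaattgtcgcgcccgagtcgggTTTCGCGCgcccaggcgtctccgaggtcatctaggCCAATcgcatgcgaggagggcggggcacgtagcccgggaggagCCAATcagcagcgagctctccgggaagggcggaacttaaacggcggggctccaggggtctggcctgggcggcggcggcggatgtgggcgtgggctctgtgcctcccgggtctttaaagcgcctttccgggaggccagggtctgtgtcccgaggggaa
Mcm6: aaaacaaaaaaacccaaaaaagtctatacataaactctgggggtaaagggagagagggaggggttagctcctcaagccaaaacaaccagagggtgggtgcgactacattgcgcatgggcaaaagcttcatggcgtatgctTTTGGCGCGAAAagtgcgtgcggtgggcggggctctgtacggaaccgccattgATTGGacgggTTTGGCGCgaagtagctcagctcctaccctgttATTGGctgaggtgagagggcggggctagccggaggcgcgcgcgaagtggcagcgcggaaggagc
Rrm2: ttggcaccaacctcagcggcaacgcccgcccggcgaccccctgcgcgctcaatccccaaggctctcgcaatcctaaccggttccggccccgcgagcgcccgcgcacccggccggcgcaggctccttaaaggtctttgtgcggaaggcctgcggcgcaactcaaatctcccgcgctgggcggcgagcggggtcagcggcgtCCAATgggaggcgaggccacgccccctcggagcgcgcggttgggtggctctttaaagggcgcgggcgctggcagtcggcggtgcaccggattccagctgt
Orc3: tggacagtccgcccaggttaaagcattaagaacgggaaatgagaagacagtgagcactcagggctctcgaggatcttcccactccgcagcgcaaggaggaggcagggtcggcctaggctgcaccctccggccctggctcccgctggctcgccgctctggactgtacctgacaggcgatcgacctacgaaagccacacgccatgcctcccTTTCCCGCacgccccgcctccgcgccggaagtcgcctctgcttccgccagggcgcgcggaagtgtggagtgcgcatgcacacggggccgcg

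The Mcm5 sequence held 2 overlapping E2F words, at -153 and -149 from the start, and 3 CCAAT boxes, at -77, -22 and 7. Uhrf1 had an E2F word at -185 and CCAAT boxes at -150 and -107. Mcm6 had E2F words at -110, -106 and -47, and CCAAT boxes at -57 and -14. Rrm2 had a CCAAT box at -50 and no match to the E2F words searched. Orc3 had an E2F word at -41 and no CCAAT box. The RefSeq start lay 60 bases from the start of the most abundant deposited transcript for Mcm5, 35 for Uhrf1, 41 for Mcm6, 13 for Rrm2 and 2 for Orc3. Among the other promoters searched it lay up to 555 bases away (E2f8), with 539 for Mcm7, 325 for Dut, 294 for E2f1, 159 for Orc6 and 59 for Rpa1. For these, and for Mcm5 among those printed, the window does not cover the start of the main deposited transcript.

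The words searched were TTTCCCGC, TTTCGCGC, TTTGCCGC and TTTGGCGC for E2F and CCAAT for NF-Y, each on both strands, in the 44 of the 54 tested genes, and the 8495 of all tested genes, that have a RefSeq promoter sequence. An E2F word was present in 14 of the 44 promoters (31.8%), against 360 of 8495 (4.24%) of all tested genes. It stood in 6 of 19 promoters of genes called lower (31.6%) and in 8 of the 25 others (32%). A CCAAT box was present in 25 of the 44 promoters (56.8%), against 38.9% of all tested genes. It stood in 16 of the 19 promoters of genes called lower (84.2%) and in 9 of the 25 others (36%). The 3 genes called lower without it were Tk1, Ccne1 and E2f1, which held no E2F word either. Among all genes called lower, 44.1% of 1062 promoters held CCAAT and 5.46% an E2F word. The shorter word TTTGAA, part of the cell cycle element of mitotic promoters, was in 5 of the 44 (11.4%), against 11.2% of all tested genes. An E2F word overlapped a CCAAT box in 1 gene, Mcm7. Word matches are descriptions of these windows, carry no test and do not show binding. The Dbf4 promoter held neither an E2F word nor a CCAAT box.

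**Figure D1:**
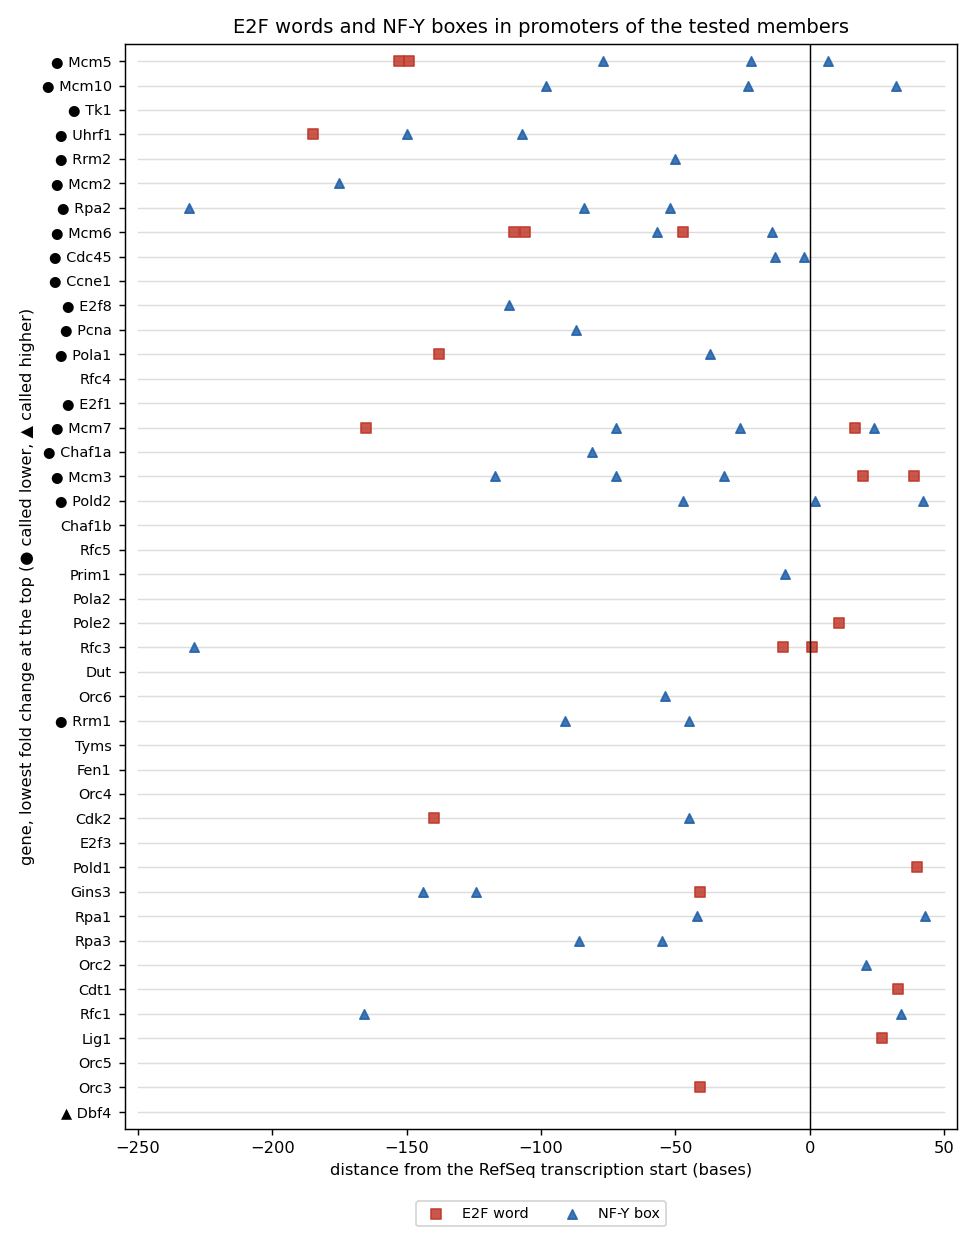
Positions of E2F words (red squares) and CCAAT boxes (blue triangles, NF-Y box) in bases from the RefSeq start, for the 44 tested genes with a promoter sequence, ordered by log2 fold change with the lowest at the top. Filled circles before a name mark genes called lower and a triangle the 1 called higher: 16 of 19 promoters of genes called lower hold a CCAAT box, against 9 of the 25 others, while E2F words are spread from top to bottom.

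Of the 54 genes tested, 22 were called lower in the siSirt7 libraries (40.7%), against 12.5% of all tested genes, and 1, Dbf4, was called higher, against 12.7% of all tested genes. The other 31 were not called. The median log2 fold change was -0.28, against -0.005 for all tested genes. By direction alone, 43 were below 0 and 11 above, against 5526 and 5328 of all tested genes. In 30 genes every siSirt7 library lay below every siScrambled library, which held for 22.1% of all tested genes, and in 3 it lay above, which held for 21.8%. All 22 genes called lower were among the 30. Their means were 1.13-fold to 2.44-fold lower, apart from Mcm10 at 3.80-fold, with a median of 1.61-fold, and 4 were lower at least 2-fold (Mcm5, Mcm10, Tk1 and Uhrf1). The Mcm10 fold rests on low values and was 2.69 to 13.99 with 1 library left out, 13.99 without siSirt7 replicate 2. At an unadjusted p under 0.05, 27 genes were lower and 3 higher (Dbf4, Orc3 and Gins4). In bulk RNA, fewer cycling cells and less of these RNAs in each cell cannot be told apart.

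**Figure D2:**
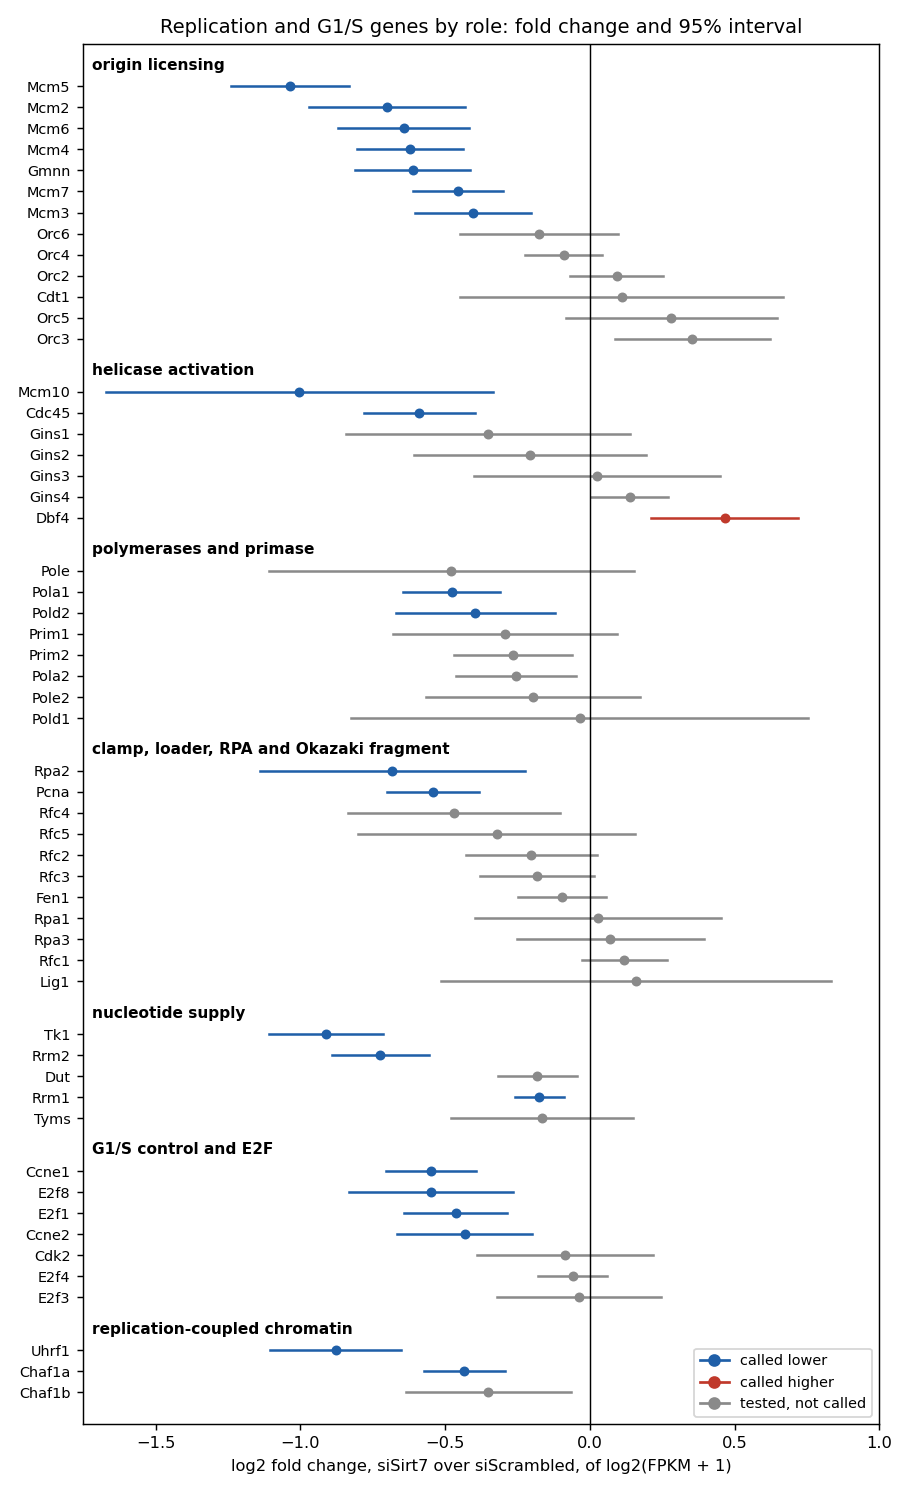
Log2 fold change (siSirt7 over siScrambled, from log2(FPKM + 1)) of each of the 54 tested genes as a point, with its 95% interval as a line, grouped by role. Blue marks the 22 called lower, red the 1 called higher and grey those not called; the 6 MCM subunits lie to the left and the 5 tested origin recognition subunits around 0.

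Of the 13 tested genes of origin licensing 7 were lower (53.8%, against 12.5% of all tested genes) and the rest not called. The median of the 13 was -0.40. All 6 subunits of the MCM2 to MCM7 helicase ring fell, with a median of -0.63, whereas 0 of the 5 tested origin recognition subunits were called by limma, with a median of 0.09 and 1 (Orc3) at an unadjusted p under 0.05.

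Mcm5 (ENSMUSG00000005410.6, chr8:75109569-75128439, plus strand, GRCm38) encodes a ring subunit. It had 2.65, 2.33 and 2.94 FPKM in the siSirt7 libraries, against 6.37, 6.48 and 6.48 FPKM in the siScrambled libraries. The groups lay far apart, and the siScrambled values were close to each other. Mean levels were 2.64 ± 0.307 FPKM with siSirt7 and 6.44 ± 0.0598 FPKM with siScrambled (SD, n = 3 each), a 2.44-fold lower mean with a log2 fold change of -1.03 (SE 0.08, limma adjusted p = 0.000681). It had the lowest adjusted p of the 54 genes. Mcm4, another ring subunit, had 7.57, 7.5 and 8.01 FPKM with siSirt7, against 13.0, 11.2 and 13.0 FPKM with siScrambled. Its mean was 1.61-fold lower (log2 fold change -0.62, adjusted p = 0.00271), and the groups did not overlap.

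Mcm7 had 8.89, 8.52 and 9.27 FPKM with siSirt7, against 12.0, 13.3 and 12.4 FPKM with siScrambled (log2 fold change -0.46, limma adjusted p = 0.00434). Mcm6 had 9.87, 11.04 and 12.8 FPKM with siSirt7, against 18.7, 17.8 and 17.5 FPKM with siScrambled (-0.64, adjusted p = 0.00486). Both genes had separate groups, and the siSirt7 values of Mcm6 spread more than its siScrambled values. Mcm2 had 5.95, 4.80 and 6.24 FPKM with siSirt7, against 8.86, 9.77 and 10.8 FPKM with siScrambled (-0.70, adjusted p = 0.00683). Mcm3 had 8.34, 7.59 and 9.33 FPKM with siSirt7, against 12.0, 11.1 and 11.2 FPKM with siScrambled (-0.40, adjusted p = 0.0158). Mcm3 thus fell least of the ring subunits on this scale, and its adjusted p was 0.0559 without siScrambled replicate 1.

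The ring needs its 6 subunits in equal number, so their RNA was also compared as shares of the summed level. The sum was 44.5 ± 3.57 FPKM with siSirt7 and 70.7 ± 0.875 FPKM with siScrambled (SD, n = 3 each). Mcm5 made up 5.92 ± 0.302% of the sum with siSirt7 and 9.12 ± 0.155% with siScrambled, the lowest share in both groups. Mcm3 made up 18.9 ± 0.625% with siSirt7 and 16.2 ± 0.653% with siScrambled. Both shares had groups that did not overlap (exact permutation p = 0.1, two-sided, the smallest that 3 against 3 allows; 0.25 adjusted over the 10 ratios tested). The shares of Mcm2, Mcm4, Mcm6 and Mcm7 had exact permutation p from 0.2 to 0.8. The ratio of the MCM sum to the sum of Orc1 to Orc6 was 0.562, 0.599 and 0.678 with siSirt7, against 0.963, 1.01 and 0.989 with siScrambled (exact permutation p = 0.1, adjusted 0.25).

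The origin recognition subunits bind the origin itself. Their summed level was 72.8 ± 3.77 FPKM with siSirt7 and 71.7 ± 2.29 FPKM with siScrambled. Orc4, the most abundant, had 27.1, 25.0 and 24.1 FPKM with siSirt7, against 26.5, 27.0 and 27.7 FPKM with siScrambled, and the groups overlapped (log2 fold change -0.09, 95% interval -0.22 to 0.04, limma adjusted p = 0.276), while its leading transcript alone had a log2 fold change of 0.047. Orc3 had 15.3, 13.4 and 12.5 FPKM with siSirt7, against 11.6, 9.04 and 11.04 FPKM with siScrambled. Every siSirt7 value of Orc3 was the higher one, without a call (0.35, adjusted p = 0.0637). Orc2, Orc5 and Orc6 had log2 fold changes of 0.09, 0.28 and -0.18, and overlapping groups. The intervals of these 5 genes did not reach a fall of 1.5-fold on the log2(FPKM + 1) scale. Orc1, the subunit whose protein is degraded in S phase in human cells, had 0.794, 0.526 and 0.527 FPKM with siSirt7, against 0.870, 0.844 and 0.741 FPKM with siScrambled, under the level tested.

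Gmnn, Cdt1 and Cdc6 act on the loading of the ring, and only Gmnn, the gene of an inhibitor, was called. Gmnn, which encodes geminin, the inhibitor of the loading factor CDT1, had 4.36, 4.92 and 4.31 FPKM with siSirt7, against 8.09, 7.02 and 7.24 FPKM with siScrambled. It fell 1.64-fold on the mean (log2 fold change -0.61, limma adjusted p = 0.00375). Cdt1 itself had 2.31, 1.4 and 1.88 FPKM with siSirt7, against 1.05, 1.504 and 2.55 FPKM with siScrambled, with no call and a wide interval (-0.45 to 0.67). The ratio of Gmnn to Cdt1 was 2.57 ± 0.850 with siSirt7 and 5.07 ± 2.47 with siScrambled (SD, n = 3 each; exact permutation p = 0.2). Cdc6, the ATPase that helps load the ring, had 0.641, 0.0314 and 0.561 FPKM with siSirt7, against 0.845, 1.35 and 1.22 FPKM with siScrambled. These low values did not overlap but lay under the level tested.

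**Figure D3:**
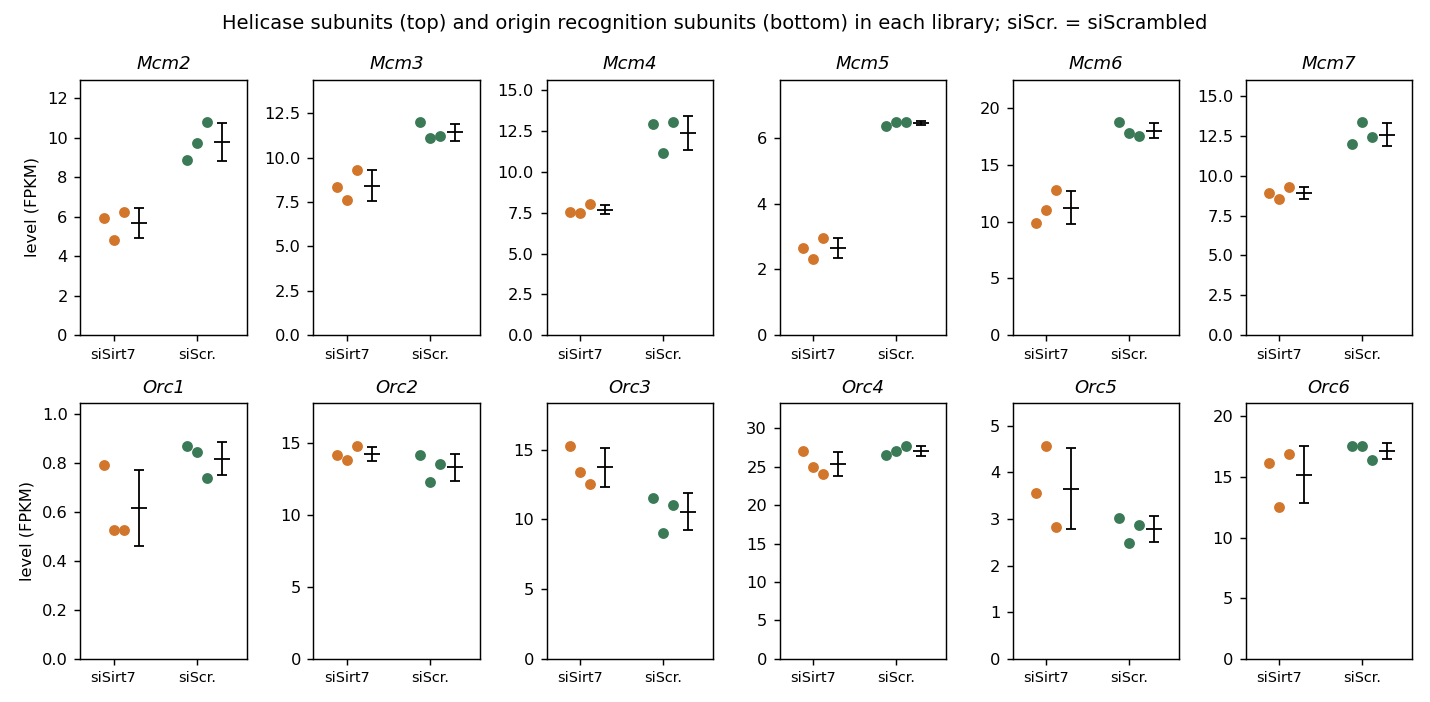
Level in FPKM of the 6 MCM ring subunits (top) and the 6 origin recognition subunits (bottom) in each library, siSirt7 in orange and siScrambled in green, with mean ± SD (n = 3) beside each group and axes from 0. Each MCM subunit has separate groups, Mcm5 with 2.64 and 6.44 FPKM on average, while Orc2, Orc4, Orc5 and Orc6 overlap.

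Helicase activation gave falls, a rise and no call side by side. Of 7 tested genes 2 were lower (28.6%, against 12.5% of all tested genes) and 1 higher, with a median of -0.21. Cdc45, a part of the active helicase with MCM and GINS, had 1.69, 1.92 and 1.74 FPKM with siSirt7, against 3.26, 3.19 and 3.10 FPKM with siScrambled. It fell 1.79-fold on the mean (log2 fold change -0.59, limma adjusted p = 0.00375), with a small spread in both groups. Mcm10, which helps the helicase start, had 0.0849, 1.18 and 0.176 FPKM with siSirt7, against 1.94, 1.91 and 1.61 FPKM with siScrambled (-1.003, adjusted p = 0.0437). One siSirt7 library was well above the other two, and the call held in 1 of the 6 fits with a library left out, that without siSirt7 replicate 2 (adjusted p from 0.00468 to 0.117 over the 6).

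Dbf4 (ENSMUSG00000002297.15, chr5:8396973-8422716, minus strand, GRCm38), the regulatory subunit of the kinase that fires origins, was the gene called higher. It had 10.99, 9.55 and 9.55 FPKM with siSirt7, against 6.21, 8.05 and 6.76 FPKM with siScrambled, with no overlap. The mean was 1.43-fold higher (log2 fold change 0.47, SE 0.10, limma adjusted p = 0.0223). Its call held in 2 of the 6 fits with a library left out, those without siScrambled replicate 2 and siSirt7 replicate 3, with adjusted p up to 0.0699 over the 6. Cdc7, the catalytic partner of DBF4, had 0.897, 0.574 and 1.02 FPKM with siSirt7, against 1.36, 0.957 and 0.0854 FPKM with siScrambled, under the level tested and overlapping. Of the 4 subunits of GINS, another part of the active helicase, 0 were called by limma, with a median of -0.09 and 1 (Gins4) at an unadjusted p under 0.05. Gins4 was the most abundant, at 21.0, 19.3 and 19.4 FPKM with siSirt7, against 18.6, 17.3 and 18.1 FPKM with siScrambled, each siSirt7 value being the higher (0.14, adjusted p = 0.119). Gins1, Gins2 and Gins3 had log2 fold changes of -0.35, -0.21 and 0.02 and overlapping groups.

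Among the polymerases and primase, 2 of 8 tested genes were called, both lower (25%, against 12.5% of all tested genes), with a median of -0.28. All 8 log2 fold changes were below 0, but that of Pold1 was above 0 with a pseudocount of 0.1 and with quantile normalization. The Pold1 value was also above 0 without siScrambled replicate 1 (0.19), siScrambled replicate 3 (0.09) or siSirt7 replicate 3 (0.08). Pola1, the catalytic subunit of the polymerase that starts each new strand, had 2.72, 2.76 and 2.86 FPKM with siSirt7, against 4.28, 4.40 and 4.11 FPKM with siScrambled. The groups were tight and apart (log2 fold change -0.48, limma adjusted p = 0.00496). Pold2, an accessory subunit of polymerase delta, had 4.02, 3.66 and 3.04 FPKM with siSirt7, against 4.42, 5.14 and 5.47 FPKM with siScrambled (-0.40, adjusted p = 0.0495). This was the call nearest the threshold, and it was lost in each of the 6 fits with a library left out (0.0524 to 0.136). Prim2, the large primase subunit, had 7.82, 9.66 and 9.01 FPKM with siSirt7, against 10.9, 10.3 and 11.1 FPKM with siScrambled (-0.27, adjusted p = 0.0650), with separate groups but no call. Pola2 was likewise separate without a call (-0.25, adjusted p = 0.0781). Pole, Prim1, Pole2 and Pold1 had log2 fold changes of -0.48, -0.29, -0.20 and -0.04, with overlapping groups. Pole, the catalytic subunit of the leading strand polymerase, spread from 1.96 to 4.55 FPKM within siScrambled alone, and was called lower without siScrambled replicate 1 (-0.75, limma adjusted p = 0.0350).

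The sliding clamp and the genes that act with it gave 2 lower of 11 tested and the rest not called, with a median of -0.18. That is 18.2% lower, near the 12.5% of all tested genes. Pcna, the clamp that holds polymerases on DNA and a common marker of proliferating cells, had 27.7, 24.4 and 23.6 FPKM with siSirt7, against 37.0, 38.2 and 36.1 FPKM with siScrambled. It fell 1.47-fold on the mean (log2 fold change -0.54, SE 0.07, limma adjusted p = 0.00276). Rpa2, a subunit of the complex that coats single-stranded DNA, had 3.50, 2.03 and 1.79 FPKM with siSirt7, against 4.03, 4.56 and 4.63 FPKM with siScrambled (-0.68, adjusted p = 0.0445). One siSirt7 value lay near the siScrambled values, and the call held in 1 of the 6 fits with a library left out, that without siSirt7 replicate 1 (0.00637 to 0.122 over the 6). Its partners Rpa1 and Rpa3 were not called, at 0.03 and 0.07.

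Of the 5 subunits of the clamp loader 0 were called by limma and 1 (Rfc4) had an unadjusted p under 0.05. In 3 (Rfc2, Rfc3 and Rfc4) every siSirt7 value lay below every siScrambled value, which held for 22.1% of all tested genes. Rfc4 had 3.20, 3.91 and 2.35 FPKM with siSirt7, against 5.07, 4.28 and 4.71 FPKM with siScrambled (log2 fold change -0.47, limma adjusted p = 0.0684, and 0.0372 without siSirt7 replicate 2). Rfc1, the largest subunit and the most abundant at RNA level, had 14.6, 15.5 and 16.4 FPKM with siSirt7, against 14.7, 13.6 and 14.3 FPKM with siScrambled, with overlap (0.12, adjusted p = 0.207). Rfc2, Rfc3 and Rfc5 had log2 fold changes of -0.20, -0.18 and -0.32. The enzymes that finish the lagging strand were not called either: the flap nuclease Fen1 stood at -0.10 and the ligase Lig1 at 0.16, with Lig1 spread from 3.91 to 8.56 FPKM within siScrambled.

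Nucleotide supply gave 3 lower of 5 tested (60%, against 12.5% of all tested genes) and the rest not called, with a median of -0.18. Tk1 (ENSMUSG00000025574.13, chr11:117815526-117826092, minus strand, GRCm38), the thymidine kinase of the salvage pathway, had 2.79, 2.65 and 2.57 FPKM with siSirt7, against 5.39, 6.34 and 6.00 FPKM with siScrambled. It fell 2.21-fold on the mean (log2 fold change -0.91, limma adjusted p = 0.000914), with groups far apart. Rrm2, the subunit of ribonucleotide reductase whose level limits the enzyme in S phase, had 7.002, 6.67 and 7.58 FPKM with siSirt7, against 12.5, 11.7 and 12.8 FPKM with siScrambled (-0.72, adjusted p = 0.00118).

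Its partner Rrm1, the large subunit of the same enzyme, had 65.5, 63.6 and 64.2 FPKM with siSirt7, against 75.3, 71.5 and 71.7 FPKM with siScrambled. It was called with the smallest fold of the genes called lower, 1.13-fold (log2 fold change -0.17, SE 0.03, limma adjusted p = 0.0143). The ratio of Rrm2 to Rrm1 was 0.107, 0.105 and 0.118 with siSirt7, against 0.166, 0.163 and 0.179 with siScrambled, without overlap (exact permutation p = 0.1, adjusted 0.25). Dut, which keeps uracil out of DNA, had 27.0, 27.5 and 26.3 FPKM with siSirt7, against 28.5, 31.2 and 32.4 FPKM with siScrambled. It was the uncalled gene nearest the threshold (-0.18, adjusted p = 0.0623), with separate groups, and was called without siScrambled replicate 1 (0.0324). Tyms, the thymidylate synthase, stood at -0.17 with overlapping groups.

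Of the 7 tested genes of G1/S control 4 were lower (57.1%, against 12.5% of all tested genes) and the rest not called. The median of the 7 was -0.43. Ccne1, which encodes cyclin E1, the partner of CDK2 at the G1/S transition, had 10.8, 9.75 and 10.1 FPKM with siSirt7, against 16.0, 14.6 and 15.7 FPKM with siScrambled. It fell 1.51-fold on the mean (log2 fold change -0.55, limma adjusted p = 0.00237). Ccne2, the second cyclin E gene, had 2.93, 3.38 and 3.66 FPKM with siSirt7, against 4.40, 5.12 and 4.98 FPKM with siScrambled (-0.43, adjusted p = 0.0215). The groups of both cyclins were apart, and the Ccne2 call held in 2 of the 6 fits with a library left out, those without siScrambled replicate 1 and siSirt7 replicate 3 (0.0310 to 0.0737 over the 6). Cdk2, their kinase, was not called (-0.09) and its groups overlapped.

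Of the 4 E2F genes tested, 2 were called lower, against 12.5% of all tested genes. E2f1, an activator that is itself an E2F target, had 4.43, 4.75 and 5.14 FPKM with siSirt7, against 6.71, 6.93 and 7.23 FPKM with siScrambled (log2 fold change -0.46, limma adjusted p = 0.00670). E2f8, an atypical repressor that rises in S phase, had 1.23, 1.04 and 1.21 FPKM with siSirt7, against 2.15, 1.81 and 2.55 FPKM with siScrambled (-0.55, adjusted p = 0.0187). Both had separate groups, and the E2f8 call was lost without siScrambled replicate 1, siScrambled replicate 3 or siSirt7 replicate 2 (0.0244 to 0.0604 over the 6 fits). E2f4, the repressor that occupies these promoters in resting cells, had 13.2, 12.5 and 12.9 FPKM with siSirt7, against 13.2, 13.3 and 13.8 FPKM with siScrambled. Its difference was small (-0.06, 95% interval -0.18 to 0.06, adjusted p = 0.429). The activator E2f3 was not called either (-0.04), and E2f7, the partner of E2f8, had 0.443, 0.729 and 0.510 FPKM with siSirt7, against 1.26, 1.31 and a listed 0 with siScrambled.

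Of the 3 genes of chromatin behind the fork, 2 were called lower (66.7%, against 12.5% of all tested genes) and 1 was not called. All 3 had every siSirt7 value below every siScrambled value, which held for 22.1% of all tested genes. Uhrf1, which brings the maintenance DNA methyltransferase to newly copied DNA, had 3.79, 3.35 and 4.15 FPKM with siSirt7, against 7.11, 8.38 and 7.76 FPKM with siScrambled. It fell 2.06-fold on the mean (log2 fold change -0.88, limma adjusted p = 0.00179). Chaf1a, the large subunit of the histone chaperone CAF-1, had 6.36, 5.98 and 6.26 FPKM with siSirt7, against 8.89, 8.55 and 8.71 FPKM with siScrambled (-0.43, adjusted p = 0.00358). Its partner Chaf1b had 2.32, 1.67 and 1.93 FPKM with siSirt7, against 2.80, 3.10 and 2.46 FPKM with siScrambled (-0.35, adjusted p = 0.0766). The ratio of both CAF-1 genes was 3.19 ± 0.422 with siSirt7 and 3.16 ± 0.387 with siScrambled (SD, n = 3 each; exact permutation p = 0.8).

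**Figure D4:**
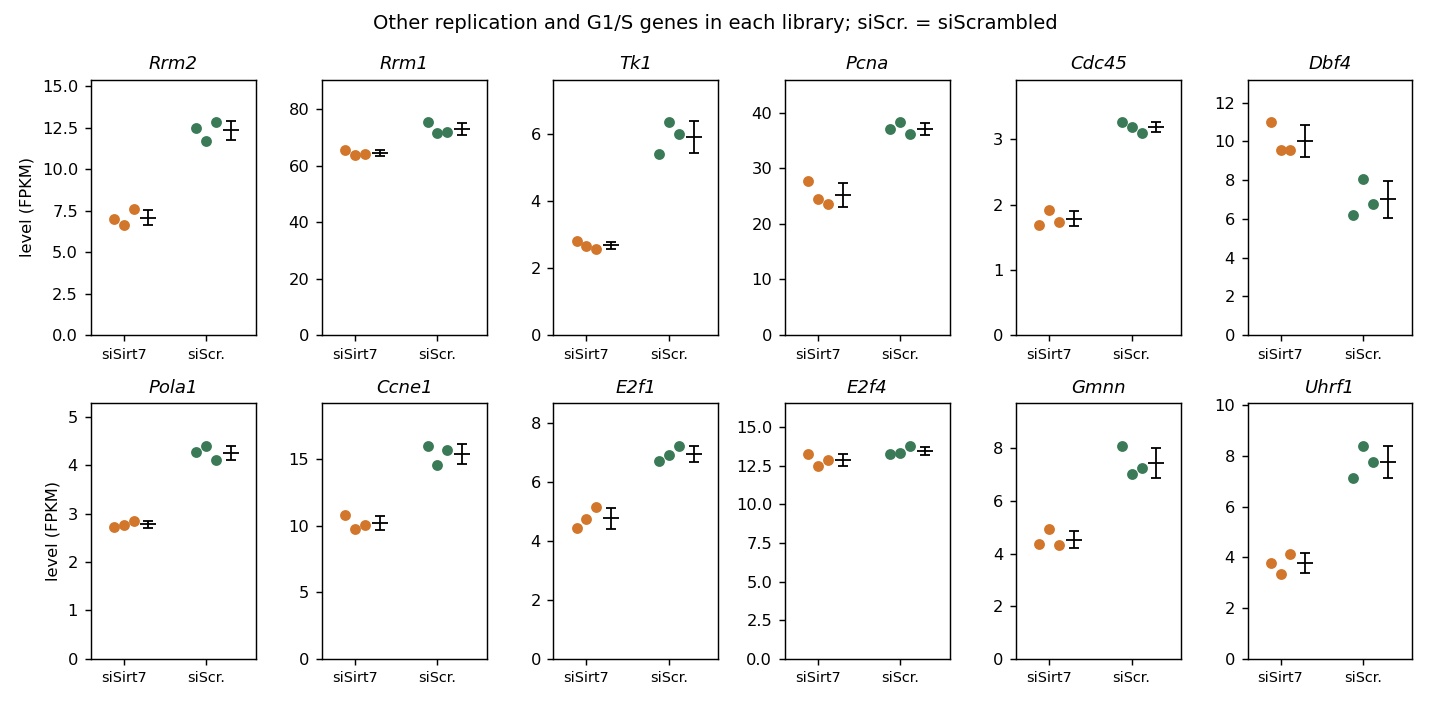
Level in FPKM in each library of 12 further genes, Gmnn of origin licensing and 11 of the other roles, siSirt7 in orange and siScrambled in green, with mean ± SD (n = 3) beside each group and axes from 0. Rrm2, Tk1, Pcna, Cdc45, Pola1, Ccne1, E2f1, Gmnn and Uhrf1 are lower in every siSirt7 library, Rrm1 by 1.13-fold only, Dbf4 is higher, and the groups of E2f4 almost touch.

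The genes were also split by a list the roles do not use. Of the tested genes, 20 are on a list of S phase markers drawn up from single human cells, and 34 are not. On that list 14 of 20 were lower (70%, against 12.5% of all tested genes) and the rest not called, with a median of -0.55. Off it 8 of 34 were lower (23.5%) and 1 higher, with a median of -0.18. All 20 genes on the list had a fold change below 0, against 23 of the 34 off it. By level, 13 of 28 genes averaging 5 FPKM or more were lower, and so were 9 of 26 with a mean from 1 to under 5 FPKM. Of the 31 genes not called, 8 had a 95% interval that reached a fall of 1.5-fold on the log2(FPKM + 1) scale. For low genes that is a larger fall in FPKM, so the other intervals do not all exclude a 1.5-fold fall in FPKM.

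Other replication genes that are not among the 59 were set beside them. Of 53 such genes 45 were tested, and 19 were lower (42.2%, against 12.5% of all tested genes) and 2 higher. The median of the 45 was -0.25. Ccna2, the S phase cyclin, had 6.06, 6.50 and 6.01 FPKM with siSirt7, against 14.0, 13.4 and 14.8 FPKM with siScrambled (log2 fold change -1.07, limma adjusted p = 0.00026). Topbp1, a scaffold for origin firing, had 9.11, 8.54 and 8.34 FPKM with siSirt7, against 15.2, 13.7 and 13.5 FPKM with siScrambled (-0.65, adjusted p = 0.00158). Top2a, the topoisomerase that separates copied chromosomes, averaged 13.4 ± 1.33 FPKM with siSirt7 and 26.3 ± 0.289 FPKM with siScrambled (-0.93, adjusted p = 0.0006). The 2 that rose were Chtf8, of an alternative clamp loader, by 0.33, and the topoisomerase Top1, by 0.30, on the log2 scale; both were chosen after their values were seen.

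The S phase list holds 22 genes outside the 59. Of these 17 were tested, and 8 were lower (47.1%, against 12.5% of all tested genes) and the rest not called. The median of the 17 was -0.30. Clspn, a fork and checkpoint protein gene, had 2.51, 2.32 and 2.61 FPKM with siSirt7, against 5.08, 4.20 and 5.19 FPKM with siScrambled (log2 fold change -0.74, limma adjusted p = 0.00341). The chromatin ATPase gene Atad2 had 6.80, 6.50 and 7.23 FPKM with siSirt7, against 9.82, 9.82 and 10.5 FPKM with siScrambled (-0.49, adjusted p = 0.00336). Of the genes on this list and on that of other replication genes, 10 are shared. In a list of 20 mitosis genes, 20 of 20 were lower, against 12.5% of all tested genes, with a median of -0.87. Top2a and Cdk1 stand on the mitosis list and on that of other replication genes.

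**Figure D5:**
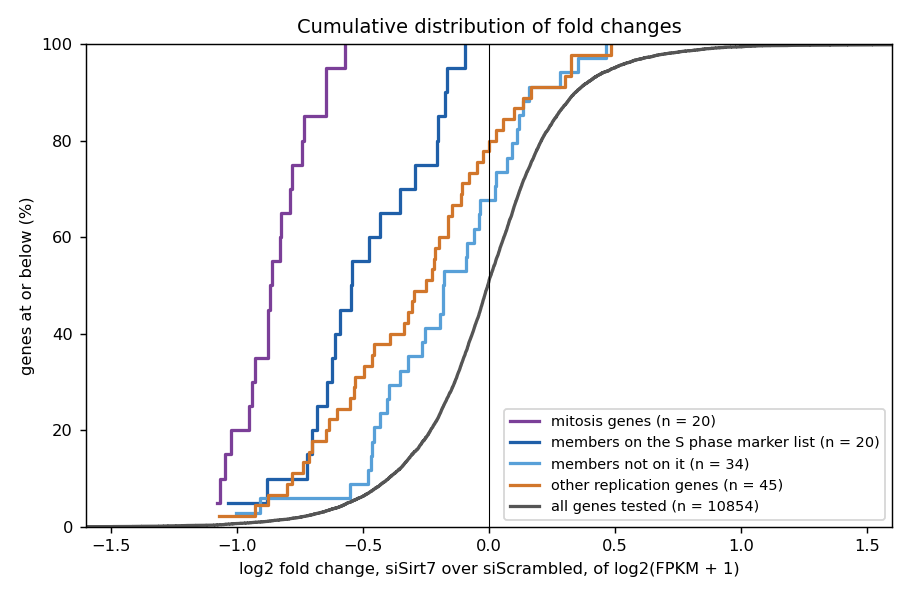
Cumulative share of genes (%) at or below each log2 fold change (siSirt7 over siScrambled, from log2(FPKM + 1)), for mitosis genes, the tested genes of replication and G1/S on and off the S phase marker list, other replication genes and all 10854 tested genes. The curves of the mitosis genes and of the genes on the S phase list lie furthest left, with medians of -0.87 and -0.55, and all tested genes centre on -0.005.

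Single transcripts gave fewer calls than gene sums. The 58 genes had 98 listed transcripts, and 30 genes had 1 each. Of 74 of these transcripts that were tested among 17414, 12 were called, all lower, in 12 genes. The most abundant transcripts of Mcm5 (1.81 FPKM with siSirt7 and 3.89 FPKM with siScrambled) and of Mcm6 (8.94 FPKM with siSirt7 and 15.2 FPKM with siScrambled) had adjusted p of 0.0919 and 0.105 in limma. For Uhrf1 the leading transcript had 2.08 FPKM with siSirt7 and 3.73 FPKM with siScrambled (adjusted p = 0.197). For Cdc45 it had 1.45 FPKM with siSirt7 and 2.54 FPKM with siScrambled (0.0726). The leading transcripts of E2f8 and Ccne2 had adjusted p of 0.607 and 0.691. In Mcm5, Mcm6, Uhrf1 and Cdc45 the direction was that of the gene sum.

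Some 3′ UTRs hold the words ATATGTA or TATGTAA, which were found by an earlier search for words tied to lower genes in these same libraries, so their direction over all genes is not independent. Among all tested genes, 598 of 2362 with a word were lower (25.3%), against 718 of 7954 without (9.03%). Of the replication and G1/S genes, 7 with a word were tested and 6 were lower: Mcm5, Mcm4, Gmnn, Pcna, Rrm1 and Ccne2. The one not called was Rpa1. Of the 46 tested without either word, 16 were lower and 1 higher (34.8% lower), with a median of -0.26. Cdc45, Pola1, Tk1, Rrm2, Ccne1, E2f1, Uhrf1 and Chaf1a are among these 16. Any part of siRNA off-target pairing in these values was not tested.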

How the data were processed

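Polyadenylated RNA was sequenced in 3 siSirt7 and 3 siScrambled libraries. Reads were aligned by the authors with HISAT2 to GRCm38 (mm10), per the submitters' processing notes. The deposited values are FPKM, 1 for each protein-coding transcript and library, and every transcript averages over 0.5 FPKM in 1 group or both. How FPKM was estimated, on which annotation release, with or without strand, and how reads of similar sequences were shared out are points not given in the sources used here.

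Transcript values were added up per gene. The 10854 genes averaging 1 FPKM or more were tested on log2(FPKM + 1) with limma 3.58.1 (trend and robust, two-sided) in R 4.3.3, with Benjamini-Hochberg adjustment over all of them and a threshold of 0.05. The test was tried on simulated data. Shares and ratios, 10 in all, were tested by exact permutation over libraries. Python 3.11.15, numpy 2.4.6, pandas 2.3.3 and matplotlib 3.10.9 were used. Promoters are RefSeq's, and 3′ UTRs come from GENCODE vM21 on the same build; 1 was searched per gene, that of its most abundant deposited transcript. Groups were taken from the sample titles.

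The genes and lists were chosen with earlier results of these data known. Genes were named by a rule: per role up to 4 called genes with the smallest adjusted p and the most abundant uncalled gene, and up to 3 called genes of each other list; further members are given so that all are accounted for. The values of 1 gene that the rule takes are left out here. The alternatives were other scalings (median of ratios, quantile), other filters (none, or 5 FPKM), pseudocounts of 0.1 and 0.5, a plain limma fit, a replicate block, single transcripts, each library left out and, chosen after seeing the data, genes with the 3′ UTR words left out.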

Additional observations from a re-analysis of the deposited data

How the results depend on the processing

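The number of replication and G1/S genes called lower, 22 in the analysis as reported, was 17 to 19 when each library was left out in turn. With each library left out, 16 of the 22 stayed called; Mcm3, Mcm10, Pold2, Rpa2, E2f8 and Ccne2 did not, and neither did Dbf4. Calls gained, all lower, were Dut and Pole without siScrambled replicate 1 (limma adjusted p = 0.0324 and 0.0350), Rfc4 without siSirt7 replicate 2 (0.0372), Dut with quantile normalization (0.0382) and Pola2 without the trend and robust options (0.0495). Ranges over these 6 fits were 0 to 1 for genes called higher, 11 to 16 for other replication genes lower, 3 to 7 for S phase genes outside the 59, 19 to 20 for mitosis genes, 1847 to 2217 for all genes called, -0.32 to -0.22 for the median and -1.65 to -1.28 for Sirt7. With a mean of at least 5 FPKM, 28 members were tested and 13 were lower. That filter gave 11 other replication genes lower, 4 S phase genes lower and a median of -0.18. The median was -0.34 and -0.31 with pseudocounts of 0.1 and 0.5, and -0.24 with quantile normalization. With single transcripts, 12 were lower and 0 higher, with 10 other replication genes, 3 S phase genes and 1388 of all genes, and Sirt7 stood at -1.30 (limma adjusted p = 0.0697). Without genes holding the 3′ UTR words, an alternative chosen after seeing the data, 15 of 46 were lower, with 9 other replication genes, 4 S phase genes and 1673 of 7785 genes called. That fit also left out genes with the word CGGAGAA and genes with no matched 3′ UTR. The cause of these shifts was not tested. Same-numbered libraries deviated with correlations of 0.007, 0.033 and -0.015, so the numbers pair nothing known. With the replicate number as a block, 19 were lower and 0 higher, with Dbf4, Mcm10, Pold2 and Rpa2 not called, and all genes called numbered 1927. Sirt7 could not be tested at a mean of at least 5 FPKM. A log2 fold change switched sign in some alternative for 10 uncalled members and 0 called ones; among members named by the rule this was Orc4, at 0.047 with its leading transcript.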
